A study of Mus musculus with 8 samples.

Results

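Primary astrocyte cultures from neonatal brain commonly carry some microglia, the resident macrophages of the brain, and the RNA of such cells enters every bulk library made from them. The genes described here are 10 genes typical of microglia rather than astrocytes, chosen by symbol from the deposited count table. All 10 were present among its 13937 genes, and all 10 passed the filter on low counts that left 13509 genes for testing. The table lists them in capitals as TMEM119, P2RY12, CX3CR1, CSF1R, TREM2, TYROBP, ITGAM, AIF1, CTSS and LAPTM5, written below as Tmem119, P2ry12 and so on.

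Brains of pups aged 1 day were the source, taken from WT mice and from RGC-32 KO mice (KO below) on the C57BL/6 background. RGC-32 is encoded by Rgcc. The meninges were removed, the cells grew for weeks in medium with serum, and loosely attached oligodendrocyte precursors and neurons were shaken off. The study's methods describe nearly all of the cells as positive for GFAP, an astrocyte protein, and no sort or depletion of microglia is given in the sources used here. After an overnight serum starvation, cultures were left untreated (WT control, KO control) or received TGF-β at 10 ng/ml for 24 h (WT TGF-β, KO TGF-β). Each of the 4 groups had 2 libraries, described as biological replicates, and no label says which libraries came from the same pups. The p-values below therefore measure the spread between these samples.

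Microglia depend on signalling through Csf1r, the receptor for CSF1 and IL-34, and in the adult brain they need TGF-β to hold the expression state called homeostatic, which is marked by Tmem119, P2ry12 and Cx3cr1. Tyrobp encodes DAP12, the adaptor through which Trem2, a receptor for lipids and apolipoproteins, signals. Itgam encodes the CD11b chain of an adhesion and complement receptor, Aif1 encodes the actin-binding protein IBA1, Ctss encodes the lysosomal protease cathepsin S, and Laptm5 encodes a lysosomal membrane protein. The last 4 are shared by microglia and other macrophages. Transcription of many such genes depends on PU.1, an ETS factor encoded by Spi1.

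Total counts on genes ran from 14920561 to 18956038 per library. Values are given as CPM, counts scaled to the TMM-adjusted total of their library. In every sample Rgcc had more counts in WT (80 and 94 in control, 215 and 362 with TGF-β) than in KO (61 and 28 in control, 64 and 26 with TGF-β), where it was not at 0. Smad7 and Skil, feedback genes that TGF-β is known to induce, passed the threshold in both genotypes, with Smad7 at log2 fold changes of 1.35 and 1.16. All 10 astrocyte markers were expressed, with summed CPM between 3440 and 5740, against 1060 to 1430 for the 10 microglial genes, which took 0.0989% to 0.138% of all counts.

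Positions are given in GRCm38 with the GENCODE M21 annotation. Tmem119 is at chr5:113793729-113800516 on the minus strand, P2ry12 at chr3:59216272-59262871 on the minus strand and Cx3cr1 at chr9:119901616-120069879 on the minus strand. Trem2 is at chr17:48346401-48354147 on the plus strand, Tyrobp at chr7:30413760-30417585 on the plus strand and Itgam at chr7:128062640-128118491 on the plus strand. Reads were unstranded, so overlapping genes matter for the counts. The gene model Gm49368 covers 68.7% of the exonic bases of Itgam on the same strand, and Hmgxb3 covers 15.1% of those of Csf1r on the opposite strand, so reads of Itgam and Csf1r could be split or shared in counting. Whether the annotation used for counting held these models is not given in the sources used here. Overlaps were 1.73% for Cx3cr1 and 0.353% for P2ry12, and none was found for the other 6 genes.

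Promoter sequences are shown for 1 motif, the core GAGGAA that PU.1 is known to bind. RefSeq promoters of 300 bases (250 before the start of transcription and 50 after it, GRCm38.p6) were matched for 7 of the 10 genes, and Tmem119, Tyrobp and Csf1r had no entry. The core GAGGAA, searched on both strands, occurred in 5 of the 7, against 28.3% of all 32851 promoters of this length. The longer form GAGGAAGT, which contains the core, occurred in 1 of the 7, that of Ctss, against 3.2% of all promoters. Of the 7, the promoters of P2ry12 and Cx3cr1 did not hold the core in this window. Windows of 30 bases around 1 match for each gene follow, 5′ to 3′ on the strand given, with the core in capitals. A match is a description of letters, and no binding was measured.
Ctss, chr3:95526774-95526803, minus strand: agcatccacaatGAGGAAgtgaactttcat
Laptm5, chr4:130913266-130913295, minus strand: cagaacaaaaaaGAGGAAgccacaggctgc
Itgam, chr7:128062544-128062573, plus strand: tgttttctcccgGAGGAAggctacagaggg
Aif1, chr17:35176042-35176071, plus strand: aacaataggatgGAGGAActgggtgcctat
Trem2, chr17:48346349-48346378, minus strand: gcgtgagggaggGAGGAAggaaaggaggct

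The 10 genes differed widely in level. Levels were compared per length on the deposited Cufflinks values, whose unit is not named and was taken as FPKM. Mean values over the 4 control libraries were 115 for Tyrobp, 113 for Ctss and 102 for Laptm5, whose ranges over the libraries overlapped (97.5 to 130, 97.2 to 126 and 87.8 to 118). Csf1r followed with 54.1 FPKM and Cx3cr1 with 40.9 FPKM. The ranges of these 2 genes overlapped neither each other nor those of their neighbours in the order, Laptm5 above and Trem2 below. Trem2 (33.9 FPKM), Itgam (24.1 FPKM), Aif1 (22.3 FPKM) and Tmem119 (20.1 FPKM) had ranges that overlapped from each to the next. P2ry12 was lowest by far at 3.52 FPKM (3.44 to 3.59). With TGF-β Ctss and Tyrobp exchanged the first and second places, and Tmem119 moved from place 9 to place 6 with a mean of 31.9 FPKM (29.9 to 34.2).

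The first question was whether TGF-β changed these genes in WT cultures. Tmem119, a transmembrane protein used to tell microglia from other macrophages in the brain, rose 1.99-fold and was the only one of the 10 to pass the threshold, set at 0.6 for the absolute log2 fold change and at 0.05 for the adjusted p. The same threshold was passed by 13.4% of all genes tested, and by 7.72% in the upward direction. Over the 10 genes the median log2 fold change was -0.01, against 0.00 over all genes. Of the other 9 genes, 4 had a log2 fold change above 0 and 5 below.

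Tmem119 measured 39.1 and 43.6 CPM in WT control and 79.6 and 85.0 CPM in WT TGF-β. The groups did not overlap, and the replicates of each lay close together. The log2 fold change was 0.99 (SE 0.13, 95% interval of the fold 1.61 to 2.45, adjusted p = 0.00136, edgeR). In all 18 alternative analyses it stayed past the threshold, with log2 fold changes of 0.76 to 1.06.

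P2ry12, the purinergic receptor by which microglia sense ADP, measured 9.16 and 8.53 CPM in WT control and 12.5 and 10.4 CPM in WT TGF-β. Both TGF-β libraries were above both controls, as were 35.4% of all genes. The log2 fold change was 0.38 (SE 0.13), with an unadjusted p of 0.0235 and an adjusted p of 0.0647 by edgeR, so it did not pass, and over the 18 alternatives the value ran from 0.01 to 0.49. As FPKM the WT groups of P2ry12 overlapped (3.59 and 3.56 in control, 4.19 and 3.11 with TGF-β). In CPM, P2ry12 and Tmem119 were the only 2 of the 10 genes whose WT groups did not overlap.

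Cx3cr1, the receptor for the chemokine fractalkine, measured 171 and 154 CPM in WT control and 182 and 128 CPM in WT TGF-β. Both control values lay between the TGF-β values, and the log2 fold change was -0.07 (SE 0.15, adjusted p = 0.754). Csf1r measured 297 and 272 CPM in control and 364 and 257 CPM in the treated pair, which again lay on either side of the controls (log2 fold change 0.13, adjusted p = 0.516). For both receptors the first TGF-β library was high and the second low.

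In Trem2 the WT control libraries held 42.6 and 31.6 CPM and the TGF-β libraries 35.2 and 25.5 CPM. Its partner Tyrobp had 75.2 and 57.1 CPM in control and 61.5 and 48.7 CPM with TGF-β. Both genes overlapped between the groups, with log2 fold changes of -0.28 (adjusted p = 0.302) and -0.26 (adjusted p = 0.234).

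Itgam was at 186 and 126 CPM in WT control and at 186 and 135 CPM in WT TGF-β, a log2 fold change of 0.04. Aif1 was at 30.8 and 19.5 CPM in control and at 20.3 and 18.4 CPM with TGF-β. For Aif1 the first control library stood far above the other 3, and the log2 fold change of -0.37 (SE 0.22, adjusted p = 0.237) did not pass. Without the second WT control library the value for Aif1 was -0.69 (adjusted p = 0.0407), which made it a second gene past the threshold. Ctss (155 to 211 CPM over the 4 WT libraries) and Laptm5 (200 to 294 CPM) overlapped between the groups, with log2 fold changes of 0.13 and -0.12.

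**Figure D1:**
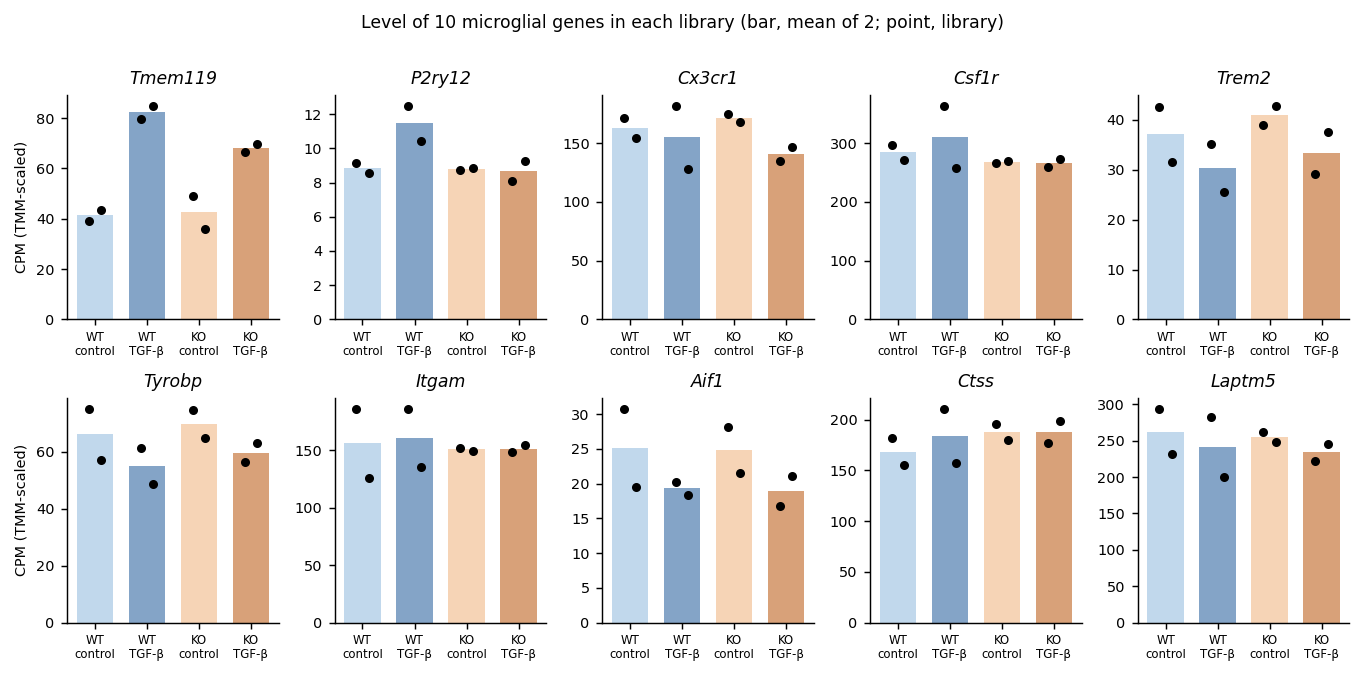
CPM of each of the 10 microglial genes (vertical axes, each from 0) in WT and KO cultures without and with TGF-β; bars are means of 2 libraries and points are single libraries. Only Tmem119 has all 4 TGF-β libraries (66.7 to 85.0 CPM) above all 4 controls (36.0 to 49.1 CPM).

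The same question was asked in KO cultures. Tmem119 rose again, 1.6-fold, and was again the only one of the 10 past the threshold, which 11.5% of all genes passed in either direction and 6.61% upward. The other 9 genes had log2 fold changes between -0.39 and 0.01, 7 of them below 0, and the median over the 10 was -0.07.

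Tmem119 measured 49.1 and 36.0 CPM in KO control and 66.7 and 69.6 CPM in KO TGF-β. The groups did not overlap, although the controls were further apart than in WT. The log2 fold change was 0.68 (SE 0.13, 95% interval of the fold 1.3 to 1.98, adjusted p = 0.008, edgeR). It lay close to the fold limit of 0.6. The call held in 13 of 18 alternatives and depended on the second library of each KO group. Without the second KO control library the log2 fold change was 0.47 (adjusted p = 0.0197), under the fold limit. Without the second KO TGF-β library it was 0.63 with an adjusted p of 0.0531.

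P2ry12 measured 8.74 and 8.82 CPM in KO control and 8.11 and 9.25 CPM with TGF-β, a log2 fold change of -0.02 (95% interval -0.34 to 0.31, adjusted p = 0.94). The TGF-β libraries lay on either side of the controls. Cx3cr1 was at 175 and 168 CPM in control and at 135 and 147 CPM with TGF-β, so that both TGF-β libraries were lower, and its log2 fold change of -0.28 (SE 0.15, adjusted p = 0.185) did not pass. In KO cultures 5 of the 10 genes had both TGF-β libraries below both controls, while 32.9% of all genes did. The 5 were Cx3cr1, Trem2, Tyrobp, Aif1 and Laptm5. Among 20 other genes of the myeloid lineage, described further below, 17 had the same arrangement in KO.

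For Trem2 the values were 38.9 and 42.9 CPM in KO control and 29.1 and 37.5 CPM after TGF-β treatment (log2 fold change -0.30, adjusted p = 0.288). For Tyrobp they were 74.8 and 64.9 CPM against 56.3 and 63.0 CPM (log2 fold change -0.23, adjusted p = 0.306). Aif1 had 28.1 and 21.5 CPM in control and 16.8 and 21.1 CPM with TGF-β, with a log2 fold change of -0.39 (adjusted p = 0.234). None of these separations reached the threshold, and the gap between the groups was small beside the spread within them.

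For the remaining 4 genes the values of the 2 KO groups lay close together. Csf1r was at 267 and 269 CPM in control and at 260 and 273 CPM with TGF-β. Itgam was at 152 and 149 CPM against 148 and 154 CPM. Ctss measured 196 and 180 CPM in control and 177 and 199 CPM with TGF-β, and Laptm5 measured 262 and 248 CPM against 222 and 246 CPM. For Csf1r, Itgam and Ctss the log2 fold changes lay between -0.01 and 0.01, with 95% intervals of -0.33 to 0.32, -0.44 to 0.45 and -0.33 to 0.33, and for Laptm5 the value was -0.12 (-0.51 to 0.26).

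**Figure D2:**
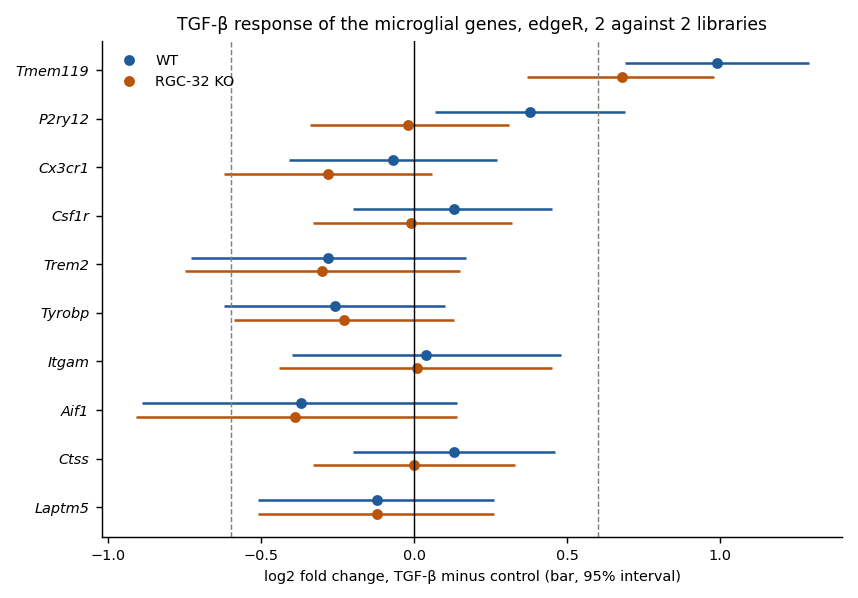
Log2 fold change of TGF-β against control (horizontal axis) for each gene in WT and KO cultures; points are edgeR estimates, bars are 95% intervals and dashed lines mark the fold limit of 0.6 in either direction. Tmem119 stands apart at 0.99 in WT and 0.68 in KO, and among the other 9 genes the interval leaves 0 only for P2ry12 in WT.

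When TGF-β was compared with control as the average of both genotypes, Tmem119 had a log2 fold change of 0.84 (adjusted p = 0.000294) and passed in all 17 alternatives. It was the only one of the 10 genes past the threshold, which 15.1% of all genes passed. It was also the only one whose 4 TGF-β libraries were all above the 4 controls, as was the case for 23.3% of all genes. The next largest value belonged to Aif1 at -0.38, with an adjusted p of 0.0817. In limma on the Cufflinks values, which changes both the values and the test, Aif1 did pass, at -0.63 with a pseudocount of 1 (adjusted p = 0.0218) and at -0.67 with a pseudocount of 0.1 (adjusted p = 0.017).

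The genotypes were then compared. In control cultures no member passed the threshold between KO and WT, in a comparison where 0.037% of all genes passed the threshold. The log2 fold changes ran from -0.09 for Csf1r to 0.16 for Ctss, and the 95% intervals of the 10 genes together spanned -0.53 to 0.59. Csf1r was the only member whose control groups did not overlap, with KO lower, as 17.4% of all genes were.

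After TGF-β no member passed it either, with 0.0444% of all genes past the threshold. Tmem119 and P2ry12 were lower in both KO libraries than in both WT libraries, an arrangement found for 22.4% of all genes. P2ry12 had a log2 fold change of -0.40 (95% interval -0.72 to -0.09, unadjusted p = 0.0181, adjusted p = 0.32, edgeR) and Tmem119 one of -0.27 (adjusted p = 0.461). The interaction, which asks whether the TGF-β response itself differed between genotypes, called no gene of the whole table, 0%, with edgeR, DESeq2 or limma-voom. Without adjustment, 381 genes had a p under 0.05 by edgeR, 76 by DESeq2 and 368 by limma-voom, and none of the 10 was among the 381. For P2ry12 the interaction was -0.39 (unadjusted p = 0.0771) and for Tmem119 it was -0.31 (unadjusted p = 0.131), and every member had an adjusted p of 1.00. That P2ry12 separated in WT and not in KO is thus not shown to be a difference between genotypes.

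A CPM value in a mixed culture depends on how many microglia it holds as well as on each cell's expression, and in these bulk samples fewer cells of a type and less RNA per cell cannot be told apart. Each count was therefore also divided, within its own library, by the summed counts of 20 other genes of the myeloid lineage, among them Spi1, Ptprc, the chains of C1q, Fcer1g and Cd68. No test was run on these ratios. The reference itself was not constant. Its summed CPM was 1980 to 2760 in WT control and 1740 to 2160 in WT TGF-β, and 2200 to 2470 in KO control and 1750 to 2020 in KO TGF-β, a decrease of the geometric mean by 17.2% and 19.3%. Of the 20 reference genes 18 had a log2 fold change below 0 in each genotype (median -0.28 in WT and -0.29 in KO) and none passed the threshold in either, where 5.65% and 4.93% of all genes passed downward. Of the 10 astrocyte markers, read beside it, 8 had a log2 fold change below 0 in WT and 7 in KO, with medians over all 10 of -0.36 and -0.32. Counting both directions, 7 and 6 of the 10 had an adjusted p under 0.05 by edgeR. Without adjustment, 7 of the 10 in each genotype had an edgeR p under 0.05, as did 5989 and 5568 of the 13509 genes tested. The summed CPM of the astrocyte markers was 4320 to 4560 in WT control and 3440 to 3580 in WT TGF-β, and 5020 to 5740 in KO control and 4250 to 4590 in KO TGF-β. The part of a shift in cell makeup in either list was not tested.

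On this scale Tmem119 was at 1.42 to 2.2 counts per 100 myeloid reference counts in the 4 control libraries and at 3.44 to 4.9 in the 4 with TGF-β. The geometric mean of the ratio was 2.41 times as high with TGF-β in WT and 2.01 times as high in KO. P2ry12 went from 0.332 to 0.43 in controls to 0.458 to 0.597 with TGF-β, with no overlap. Itgam (6.12 to 6.76 against 7.62 to 8.59) and Ctss (6.58 to 8.16 against 9.04 to 10.1) were also higher in all 4 TGF-β libraries. So 4 of the 10 genes did not overlap on this scale, all of them higher with TGF-β, while 27.7% of all genes tested were higher without overlap relative to the same reference.

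The other 6 genes overlapped. For Csf1r (10.8 to 13.7 per 100 in controls and 13.5 to 16.9 with TGF-β) and for Laptm5 (10.6 to 11.6 in controls and from 11.5 upward with TGF-β) the ranges met only at their ends. Trem2 (1.54 to 1.95 against 1.47 to 1.85), Tyrobp (2.72 to 3.02 against 2.81 to 3.21) and Aif1 (0.976 to 1.14 against 0.939 to 1.06) kept nearly the same ratio to the reference, with TGF-β to control ratios of 0.947 to 1.06. For these 3 genes the ranges with TGF-β overlapped those of the controls without lying inside them. The highest Tyrobp ratios were those of KO TGF-β (3.21 and 3.12). The lowest Aif1 ratios came from the first TGF-β library of each genotype (0.939 and 0.955), and the lowest Trem2 ratio from the second WT TGF-β library (1.47).

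The choice of reference decided all of these separations but that of Tmem119. Against the summed counts of the other 9 members, Tmem119 was at 3.04% to 4.14% in controls and 5.87% to 8.69% with TGF-β, still without overlap, while 11.6% of all genes tested were higher without overlap relative to the summed 10 genes. P2ry12, Itgam and Ctss overlapped on that scale, as did Csf1r and Trem2. Cx3cr1, Tyrobp, Aif1 and Laptm5 were lower in all 4 TGF-β libraries, as were 10.4% of all genes, with Aif1 at 1.81% to 2.38% in controls and 1.44% to 1.76% with TGF-β.

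**Figure D3:**
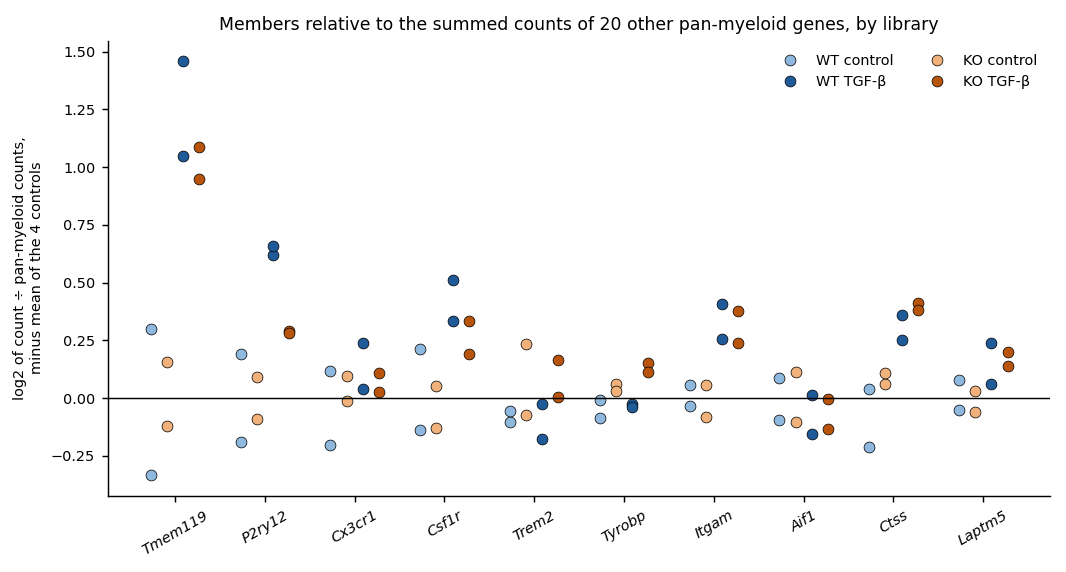
Log2 of each gene's count divided by the summed counts of 20 other myeloid genes in the same library, as the difference from the mean of the 4 controls (vertical axis); each point is 1 library, coloured by group. The TGF-β libraries of Tmem119, P2ry12, Itgam and Ctss lie above all 4 controls, while the ranges of Trem2, Tyrobp and Aif1 overlap with those of the controls.

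The spread between the 2 libraries of a group was shared by the genes. The 9 genes other than Tmem119 were higher in the first library in 9 of 9 cases in WT control, by a median of 0.35 on the log2 CPM scale, and in 9 of 9 cases in WT TGF-β, by a median of 0.46. In KO control 6 of 9 were higher in the first library, and in KO TGF-β 0 of 9 were, with a median difference of -0.16. Across all genes the median absolute difference between replicates was 0.09 to 0.12. The 20 other myeloid genes followed the same pattern, with 20, 19, 18 and 3 of 20 higher in the first library.

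Division by the myeloid reference narrowed this spread in 3 of the 4 groups. For the 9 genes the median absolute difference between replicates went from 0.35 to 0.18 in WT control, from 0.46 to 0.15 in WT TGF-β and from 0.16 to 0.08 in KO TGF-β, and it went from 0.08 to 0.14 in KO control. In both WT groups Tmem119 was lower in the first library, where the other 9 genes were all higher.

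**Figure D4:**
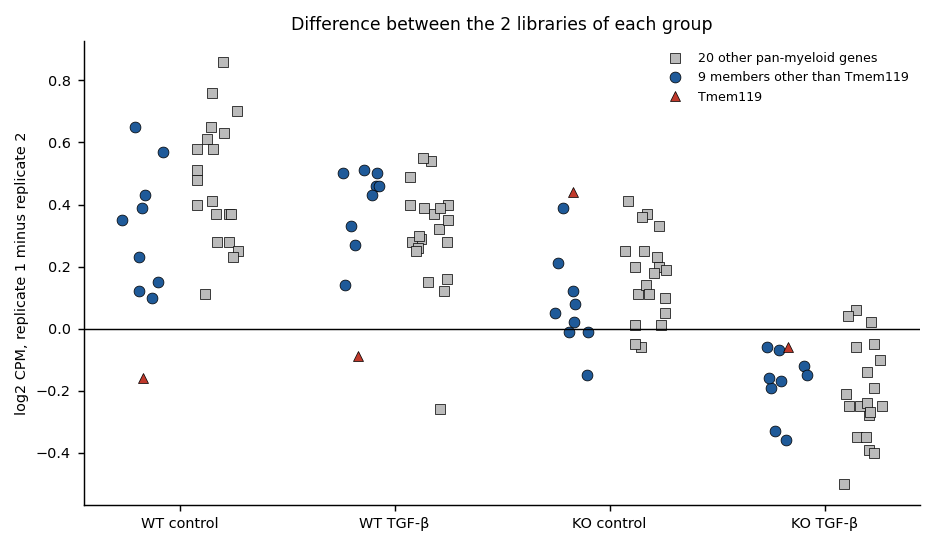
Log2 CPM of the first minus the second library of each group (vertical axis) for Tmem119, the 9 other members and 20 other myeloid genes; each point is 1 gene. In WT control and WT TGF-β all 9 members lie above 0 while Tmem119 lies below it, and in KO TGF-β all 10 lie below 0.

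As a description over the 8 libraries, whose values share library totals and treatment, the correlation of each gene with the mean log2 CPM of the other 9 was 0.875 for Itgam, 0.862 for Laptm5 and 0.831 for Ctss. It was 0.733 for Csf1r, 0.724 for Cx3cr1, and between 0.45 and 0.588 for P2ry12, Aif1, Trem2 and Tyrobp. For Tmem119 it was -0.328. Of 12973 other genes, those whose profile was most like the mean of the 10 were Sh3bp2 (r = 0.968), Ikzf1 (r = 0.958), Arhgap45 (r = 0.935), Akr1c14 and Slamf9 (both r = 0.904). Ikzf1 encodes Ikaros, a transcription factor of blood cells, and Slamf9 encodes a receptor of the SLAM family found on immune cells.

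Other genes of the homeostatic state were read from a list of 8, of which 6 were tested. None passed the threshold in WT or in KO, and the medians were 0.00 and -0.17. Olfml3, a secreted protein made by microglia, measured 45.9 and 40.7 CPM in WT control and 61.4 and 65.2 CPM in WT TGF-β (log2 fold change 0.55, adjusted p = 0.00325), under the fold limit. In KO its log2 fold change was 0.29 (adjusted p = 0.046). Olfml3 was thus higher with TGF-β, like Tmem119, whereas Gpr34, a lysophospholipid receptor of microglia, fell in the average of the genotypes by 0.62 on the log2 scale (adjusted p = 0.0185), a call that ended in 5 of 17 alternatives. Sall1, a transcription factor that holds microglial identity in the adult brain, had a log2 fold change of -0.21 in that average, under the fold limit (adjusted p = 0.0314).

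Among the 20 myeloid reference genes, Cd68, a lysosomal glycoprotein of macrophages, was the only one past the threshold in the average of the genotypes, which 15.1% of all genes passed. Its log2 fold change was -0.62 (adjusted p = 0.0107), a call that ended in 4 of 17 alternatives. Its levels were 87.0 and 60.8 CPM in WT control, 54.1 and 43.2 CPM in WT TGF-β, 85.4 and 74.3 CPM in KO control and 42.5 and 60.1 CPM in KO TGF-β. All 4 TGF-β libraries were below all 4 controls for Cd68, and likewise for Lcp1. The share of all genes with that arrangement is not given here.

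Genes of activated microglia were read from a list of 14, of which 13 were tested. In WT 2 of the 13 fell and in KO 3 of the 13, where 5.65% and 4.93% of all genes fell, and none passed the threshold upward. Lpl, lipoprotein lipase, measured 176 and 95.7 CPM in WT control and 47.1 and 47.6 CPM in WT TGF-β, and its log2 fold change was -1.52 in WT (adjusted p = 0.00772) and -1.44 in KO (adjusted p = 0.0112). The call in KO was lost without the second control library (adjusted p = 0.0681) or the first TGF-β library (adjusted p = 0.0695). Lgals3, galectin-3, measured 129 and 102 CPM in WT control and 63.0 and 45.1 CPM in WT TGF-β, and fell by 1.09 on the log2 scale in WT (adjusted p = 0.00472) and by 1.01 in KO (adjusted p = 0.00775). Both genes are also made by cells other than microglia. Clec7a, the lectin receptor Dectin-1, fell by 0.77 in KO (adjusted p = 0.04), a call that ended in 6 of 18 alternatives.

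Axl, a receptor tyrosine kinase that astrocytes also express, had log2 fold changes of 0.57 in WT (adjusted p = 0.000652) and 0.52 in KO (adjusted p = 0.00111), both under the fold limit. Genes of border-associated macrophages and monocytes, which can enter with remnants of the meninges, were read from a list of 10, of which 5 were tested. Mrc1, the mannose receptor CD206, had 539 and 502 counts in WT control and 191 and 103 counts in WT TGF-β. In KO it had 211 and 288 counts in control and 52 and 91 counts with TGF-β. It fell by 1.90 on the log2 scale in WT (adjusted p = 0.00139) and by 1.68 in KO (adjusted p = 0.00492) and was past the threshold in all 18 alternatives in each genotype. Cbr2, a carbonyl reductase, fell in WT by 0.65 (adjusted p = 0.0136), a call that ended in 3 of 18 alternatives. The summed CPM of the 5 genes was 416 to 499 in WT control and 312 to 458 in WT TGF-β, and 425 to 447 in KO control and 284 to 332 in KO TGF-β, with Ccr2, the monocyte receptor, at 1 to 8 counts in every library. The part of these cells in the values of Itgam, Aif1, Ctss and Laptm5, which they share with microglia, was not tested.

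**Figure D5:**
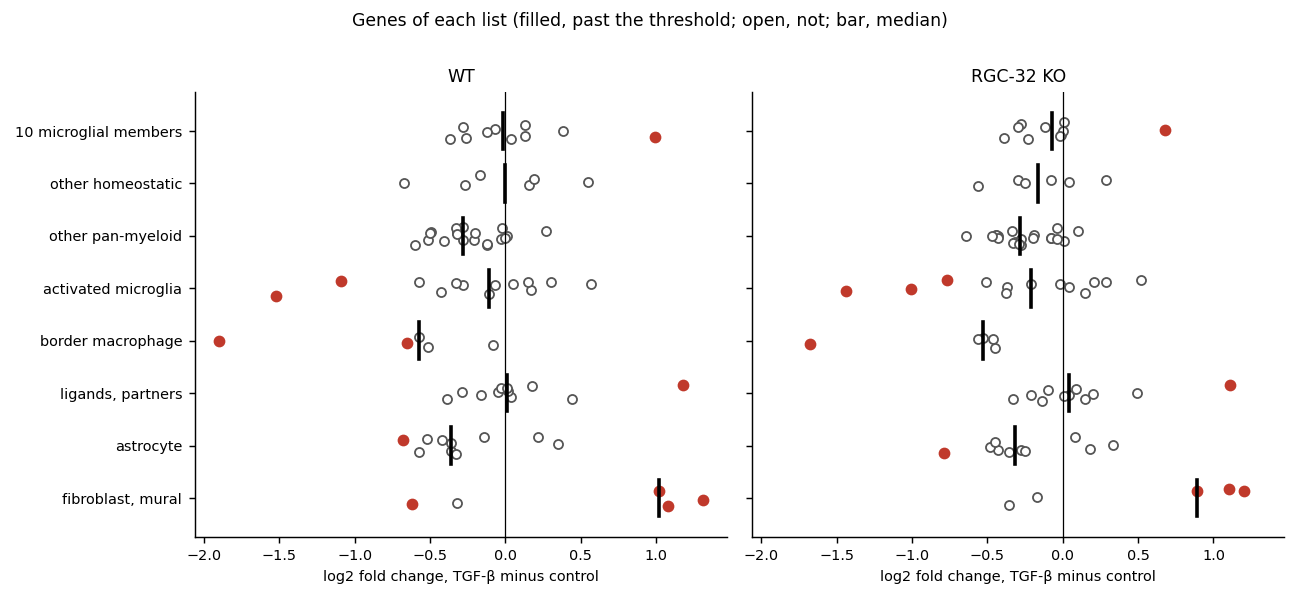
Log2 fold change of TGF-β against control (horizontal axis) for the genes of 8 lists (rows) in WT and KO cultures; each point is 1 gene, filled where it passed the threshold, and vertical bars are medians. In the row of the 10 members only Tmem119 is filled, and the 20 other pan-myeloid genes have medians of -0.28 and -0.29.

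Ligands and partners of the 10 genes were read from a list of 12, of which 11 were tested. In each genotype 1 of the 11 passed the threshold, where 13.4% and 11.5% of all genes did. Tgfb1, the ligand TGF-β1 itself, rose by 1.18 on the log2 scale in WT (adjusted p = 0.00648) and by 1.11 in KO (adjusted p = 0.00994), from 50.4 to 77.5 CPM in the 4 controls to 114 to 155 CPM with TGF-β. In KO the call was lost without the second control library (adjusted p = 0.064) or the second TGF-β library (adjusted p = 0.065). Cx3cl1, fractalkine, the ligand of Cx3cr1, had log2 fold changes of 0.44 (adjusted p = 0.0328) and 0.49 (adjusted p = 0.0236), under the fold limit.

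Of the ligands of Csf1r, Csf1 was abundant at 752 to 978 CPM and did not pass (log2 fold changes -0.16 in WT and -0.14 in KO), and Il34 was at 10.4 to 14.4 CPM with log2 fold changes of -0.39 (adjusted p = 0.0247) and -0.21. Syk, Plcg2 and Inpp5d, which act below Tyrobp, had log2 fold changes between -0.33 and 0.01. For Ctss, neither Cd74, whose product cathepsin S trims, nor Cst3, whose product inhibits it, passed the threshold.

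Tmem119 is also expressed in cells of the mesenchymal and bone-forming lineage, so markers of fibroblasts and mural cells were read beside it. Of 5 such genes, Col1a1, Col1a2 and Pdgfrb rose past the threshold in both genotypes, where 7.72% and 6.61% of all genes did, with Col1a1 at log2 fold changes of 1.31 (adjusted p = 0.000331) and 1.20 (adjusted p = 0.000569). The summed CPM of all 5 genes was 3380 and 4030 in WT control, 7410 and 8550 in WT TGF-β, 2790 and 2550 in KO control and 5420 and 5600 in KO TGF-β. Col1a1 and Col1a2 made up most of this sum (means of 1700 and 1560 CPM in WT control). Within each of the 4 groups the library with the higher sum was also the library with the higher Tmem119. That observation on 4 pairs was not tested and has no share of all genes beside it. In controls the sums were lower in KO, with Tmem119 at 39.1 and 43.6 CPM in WT and at 49.1 and 36.0 CPM in KO. With TGF-β both the sums and Tmem119 were lower in KO. Dcn, decorin, a defining gene of fibroblasts, had log2 fold changes of -0.62 in WT, past the threshold in all but 2 of 18 alternatives, and -0.36 in KO, under the fold limit. Lum, lumican, the fifth gene, had log2 fold changes of -0.32 (adjusted p = 0.262) and -0.17 (adjusted p = 0.587). The part of these cells in the rise of Tmem119 was not tested. All 10 astrocyte markers were tested, and Slc1a2, the glutamate transporter GLT-1, was the only one past the threshold in either genotype, at -0.68 in WT and -0.79 in KO. Markers of other cells were read as well. The summed CPM of ependymal markers was 328 to 385 in WT control and 209 to 236 in WT TGF-β, and 351 to 391 in KO control and 253 to 263 in KO TGF-β. Past the threshold, 3 of 3 fell in WT and 1 of 3 in KO, where 5.65% and 4.93% of all genes fell. Ccdc153, the 1 gene called in KO, lost its call in 7 of 18 alternatives in WT and in 5 of 18 in KO. Endothelial markers summed to 69.4 to 96.3 CPM in WT control and 49.0 to 55.2 CPM in WT TGF-β, and to 75.3 to 91.3 CPM and 47.6 to 61.0 CPM in KO. Of the 4 tested, 1 passed the threshold upward (Flt1) and 1 downward (Cdh5) in each genotype. The call of Flt1 in KO ended in 10 of 18 alternatives. The oligodendrocyte lineage summed to 380 to 401 CPM over the 4 controls, to 544 and 625 CPM in WT TGF-β and to 466 and 587 CPM in KO TGF-β. The summed CPM of neuronal markers overlapped between control and TGF-β in each genotype, at 95.3 to 137 CPM over the 8 libraries. Of the 3 tested, 1 passed the threshold upward in each genotype (Tubb3), and it did so in all 18 alternatives of each. The mean of Tubb3 went from 17.7 to 34.9 CPM in WT and from 17.8 to 34.3 CPM in KO. The part of these cell types in the values of the 10 genes was not tested.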

How the data were processed

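RNA was sequenced from 8 libraries of primary astrocyte cultures, 2 in each of 4 groups assigned by their deposited labels. The authors aligned unstranded reads with STAR in the VIPER pipeline, to mm10 per the labels, and deposited whole-number counts per gene symbol that were not normalized. The counting program and annotation are not given in the sources used here. The authors also deposited FPKM values, ascribed to Cufflinks per the labels, which served here to compare levels between genes and for an alternative. Their tables of DESeq2 fold changes and p-values were not used.

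The counts went into edgeR 4.0.16 (R 4.3.3), with filterByExpr, TMM, and 1 quasi-likelihood model of 4 group means on all 8 libraries without a block. The p-values were two-sided and adjusted over 13509 genes by the Benjamini-Hochberg method. SE was derived from the test statistic. The procedure was tested on simulated data. The alternatives were DESeq2 1.42.0, limma 3.58.1 (voom), RLE or upper quartile scaling, testing every gene or those with 10 or more counts in each library, a replicate block, edgeR on 4 libraries, limma on log2(FPKM + pseudocount) of genes above 0 in at least 2 libraries, and leaving out each library. A library left alone in its group is assumed to vary like those of the other groups.

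Gene positions are from GENCODE M21. The 10 genes, the lists and the rule for named genes (all members, list genes past the threshold, the 5 genes most like the members) were chosen with earlier results of these data known, and Olfml3, Axl, Sall1 and the genes named as ligands and partners that did not pass were named after their values were seen. Chi-square per degree of freedom between replicates was 6.26 to 10.4, so replicates differed by more than counting noise, and 8 libraries limit the precision.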

Additional observations from a re-analysis of the deposited data

How the results depend on the processing

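In WT the count of members past the threshold was 1 in all but 1 of 18 alternatives and ran from 1 to 2 when single libraries were left out, the second being Aif1 without the second WT control library. In RGC-32 KO it was 0 with upper quartile scaling (Tmem119 at 0.60 before the fold limit, adjusted p = 0.0122) and with limma on the Cufflinks values at pseudocounts of 1 (0.54, adjusted p = 0.0342) and 0.1 (0.56, adjusted p = 0.0297), and it ran from 0 to 1 when single libraries were left out. In the average of the genotypes it was 2 with limma on the Cufflinks values at either pseudocount, Aif1 being added. It was 0 in all 17 alternatives of each comparison between genotypes and of the interaction. The cause of these changes was not tested. Of 1040 values of single members under the alternatives, 1032 kept their side of the threshold, 5 lost a call, 3 gained one and 0 changed the sign of a call.

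The same replicate numbers occur in all groups, but no label ties them to shared pups or days. The differences between replicates correlated across genes at 0.491 between the controls of both genotypes, 0.253 between their TGF-β cultures, and -0.343 and -0.348 between control and TGF-β within WT and RGC-32 KO. With the replicate number as a block the number of members past the threshold was 1 in WT, 1 in RGC-32 KO and 1 in their average, and 0 in each other comparison, and of the genes named in the report Clec7a lost its call in RGC-32 KO.

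Upper quartile scaling shifted the median of all genes by -0.09 in WT and -0.08 in RGC-32 KO, and the Cufflinks values at a pseudocount of 0.1 by -0.11 in both. Upper quartile scaling gave 857 genes higher and 1055 lower in WT, against 1043 and 763 with TMM, and 747 and 895 in RGC-32 KO, against 893 and 666. Counts were low for P2ry12 (121 to 227 per library), Mrc1 (52 to 539) and Clec7a (36 to 128), which limits their precision.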

Other observations

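Itgax, the CD11c integrin chain of activated microglia and dendritic cells, had 3 to 16 counts per library and was not tested. In control cultures both RGC-32 KO libraries were below both WT libraries for Mrc1, as for 17.4% of all genes, and its log2 fold change of -1.08 (adjusted p = 0.402) did not pass the threshold. In the list of activated microglia 12 of 13 genes had a log2 fold change above 0 for RGC-32 KO against WT in control cultures (median 0.19) and 12 of 13 after TGF-β (median 0.22), and none passed the threshold in either. Some genes of that list are also expressed by astrocytes, and of the 10 astrocyte markers 9 were above 0 in each comparison, with medians of 0.21 and 0.21, and none passed. For the 10 members the same medians were 0.01 and -0.06.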
